A study of Mus musculus with 18 samples.

Results

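Collagens are the main structural proteins of the extracellular matrix, and 44 of the 55453 gene names in the count tables were collagen chain genes. They were taken as every gene whose name has the form Col, a type number, a, and a chain number. By structure they fell into 11 fibrillar chains, 6 type IV chains, 3 other chains of the basement membrane zone (Col7a1, Col15a1 and Col18a1), 7 beaded filament chains, 9 fibril-associated chains (FACIT), 4 transmembrane chains, 3 hexagonal network chains, and Col26a1, which stood outside these classes. Of the 44 genes, 38 had enough reads to be tested. The other 6 were listed with few reads over all 18 libraries, 41 for Col10a1, 49 for Col4a3, 67 for Col11a1, 72 for Col4a4, 99 for Col6a6 and 109 for Col9a1.

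Fibrillar collagens are made mainly by fibroblasts and build the fibers of the lamina propria and submucosa, with fibril-associated chains on their surface. Basement membrane collagens form the sheet under the epithelium and around vessels, nerve and smooth muscle, to which both epithelial and mesenchymal cells contribute. Transmembrane collagens sit in the cell membrane, and the chain encoded by Col17a1 links epithelial cells to that sheet in hemidesmosomes.

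RNA-Seq was performed on colonic epithelium of fixed and paraffin-embedded colons, cut out by laser microdissection, of female Swiss Webster mice. Every mouse had received azoxymethane (AOM), a colon carcinogen, at 7 weeks of age and 4 cycles of dextran sulfate sodium (DSS), which injures the colon lining, from 9 weeks, each with 7 days of 2% DSS and 14 days of plain water. All ate chow with 2 mg/kg folic acid (FA) first, and the FA diets began at 11 weeks and lasted 16 weeks, so that all tissue was taken at 27 weeks. The groups were polypoid dysplasia of mice fed 8 mg/kg FA (8P, n = 5), polypoid dysplasia of mice fed 0 mg/kg FA (0P, n = 4), non-dysplastic epithelium of mice fed 8 mg/kg FA (8ND, n = 5) and non-dysplastic epithelium of mice fed 0 mg/kg FA (0ND, n = 4). No group was free of AOM and DSS, and none of those analysed here ate the basal dose throughout. The labels do not say which libraries share a mouse, so p-values measure the spread between these libraries.

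Libraries held 3500947 to 17048524 counts on genes, and collagen genes took 7743 to 56814 of them (median 25818), with 41 to 44 collagen genes detected. All 8 epithelial markers had reads in every library, and so did all 15 fibroblast markers other than collagens, all 8 smooth muscle, 8 endothelial, 6 pericyte and 8 macrophage markers. Of 6 enteric glia markers, S100b, Sox10 and Gfap were at 0 in some libraries. In such bulk samples, fewer cells of a type and less RNA per cell cannot be told apart. The first principal component held 45.6% of the variance, and along it 8ND 1 and 8ND 2 lay closer to dysplasia than any other ND library did. Levels below are TMM-scaled counts relative to library size (CPM), and adjusted p-values are those of the edgeR quasi-likelihood test with Benjamini-Hochberg adjustment over 20787 genes, with 0.05 as the threshold.

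The type IV genes lie in head-to-head pairs that share the DNA between their starts. On mm10, the annotated starts of Col4a1 (minus strand) and Col4a2 (plus strand) on chromosome 8 overlap by 22 bases, whereas 1308 bases separate those of Col4a6 (minus) and Col4a5 (plus) on chromosome X. The first stretch below, read on the Col4a2 strand (chr8:11312801-11312830), is shown because 1 short sequence holds both starts of a pair that moved together, with the bases of both transcripts in capitals. The others are upstream sequences from the RefSeq promoter table (GRCm38, the assembly of mm10), without annotated exons, of the pair that fell in 0P vs. 0ND and of the transmembrane chain with the largest rise in 8P: Col4a5 (chrX:141475169-141475384, plus), Col4a6 (chrX:141474077-141474326, minus) and Col17a1 (chr19:47692095-47692292, minus). In these, capitals mark matches, on either strand, to the TATA box, spelled TATAAA, the CCAAT box, named for its letters, or the GC box, spelled GGGCGG. Each is written 5′ to 3′ on the strand of its gene.
Col4a1 and Col4a2: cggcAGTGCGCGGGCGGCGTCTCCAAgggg
Col4a5: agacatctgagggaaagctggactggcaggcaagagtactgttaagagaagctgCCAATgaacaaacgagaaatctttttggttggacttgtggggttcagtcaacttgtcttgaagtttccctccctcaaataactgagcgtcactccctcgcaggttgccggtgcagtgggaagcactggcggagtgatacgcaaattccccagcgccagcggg
Col4a6: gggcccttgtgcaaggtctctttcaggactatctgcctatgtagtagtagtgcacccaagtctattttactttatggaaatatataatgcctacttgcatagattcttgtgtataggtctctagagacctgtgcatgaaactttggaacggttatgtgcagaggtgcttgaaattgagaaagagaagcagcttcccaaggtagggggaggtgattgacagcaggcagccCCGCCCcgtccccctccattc
Col17a1: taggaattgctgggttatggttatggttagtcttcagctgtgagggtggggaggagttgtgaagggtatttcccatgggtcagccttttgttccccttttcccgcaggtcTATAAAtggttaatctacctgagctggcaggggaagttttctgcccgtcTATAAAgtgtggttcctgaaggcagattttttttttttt
The promoter table matched 35 of the 44 collagen genes with 38 windows. In the 250 bases before the start, TATAAA was found in 5 of these windows and in 12.4% of all 32851 windows, CCAAT in 13 and in 33.8%, and GGGCGG in 22 and in 32.7%. The AP-1 motif TGANTCA was in 1 window (6.75% of all) and the TCF motif CTTTGAT in 1 (3.21% of all). No match shown overlaps another, and a match is a description of the letters only.

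Levels of different collagen genes were compared per length, as CPM per kb of merged exons. Merged exons take in every annotated transcript of a gene and can be longer than the transcript that gave the reads. They came to 12.4 kb for Col1a2, 9.82 kb for Col3a1, 6.56 kb for Col1a1, 8.33 kb for Col6a2 and 4.38 kb for Col6a1. The order of genes below depends on these lengths. Before division by length, Col1a1 averaged 234 CPM and Col1a2 255 CPM. Averaged over all 18 libraries, Col3a1 stood highest at 48.7 CPM per kb, followed by Col1a1 at 35.6, Col4a1 at 32.1, Col6a1 at 23.9, Col4a2 at 23.6, Col1a2 at 20.5 and Col18a1 at 20.1 CPM per kb. Col3a1 and Col1a1 build the interstitial fibers, Col4a1 and Col4a2 the common basement membrane network, and Col6a1 the filaments next to it. In 8P, Col3a1 at 47.0 ± 15.01 and Col1a1 at 45.0 ± 20.4 CPM per kb lay within each other's spread (SD, n = 5). Before division by length they had 461 ± 147 and 295 ± 134 CPM there, so their near equality per kb depends on the lengths used. In 0ND they were apart, at 38.2 ± 5.69 CPM per kb for Col3a1 and 19.9 ± 4.12 for Col1a1 (SD, n = 4). The order of the other genes changed with the group. In 0ND, Col6a1 at 26.2 CPM per kb came after Col3a1, ahead of Col4a1 at 20.4 and Col1a1, with Col18a1 at 7.98 CPM per kb, whereas in 8P Col18a1 at 27.3 stood above Col6a1 at 18.9 CPM per kb, although Col6a1 and Col4a1 in 0ND, and Col18a1 and Col6a1 in 8P, had overlapping ranges of mean ± SD. Over all libraries, the leading FACIT chain was Col12a1 at 12.2 CPM per kb, the leading transmembrane chain Col23a1 at 2.29 and the leading hexagonal chain Col8a1 at 1.498. The cartilage fibril gene Col2a1 was at 0.0680 CPM per kb.

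**Figure D1:**
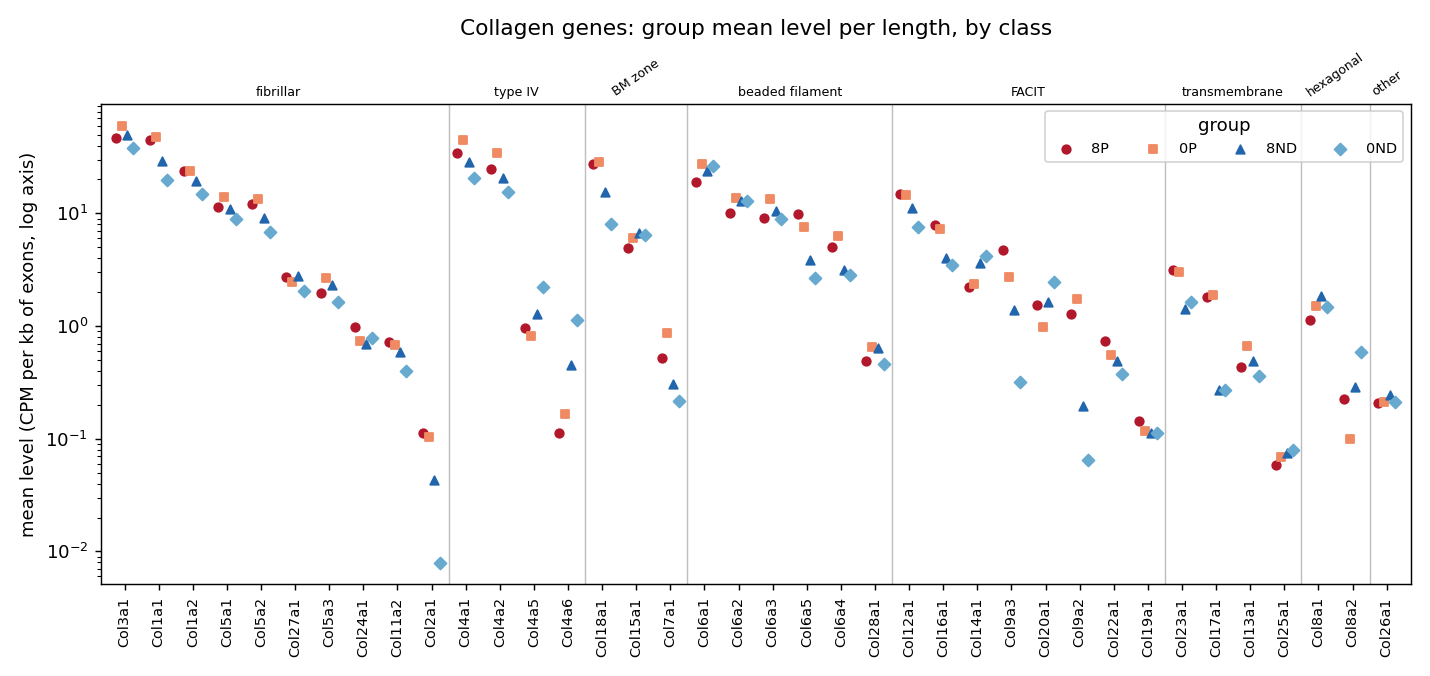
Mean level of the 38 tested collagen genes in CPM per kb of exons (log axis), 1 point per group (8P, 0P, 8ND, 0ND), ordered by class and by level within it. BM zone stands for Col18a1, Col15a1 and Col7a1. The groups lie close together for most genes and lie wide apart for Col2a1, Col8a2, Col9a2, Col9a3, Col4a6 and Col17a1.

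The first question was which collagen genes differed between dysplasia and non-dysplastic epithelium under each diet. With 8 mg FA, 8 of the 38 tested collagen genes rose in 8P vs. 8ND and 3 fell, where 13.9% of all tested genes rose and 14.3% fell (28.2% either way). Without FA, 18 rose and 5 fell in 0P vs. 0ND, where 15.9% of all genes rose and 15.7% fell (31.6% either way). The median log2 fold change of the 38 genes was 0.26 in 8P vs. 8ND, against 0.0020 for all genes, and 0.67 in 0P vs. 0ND, against −0.034 for all genes. Of the 11 genes called in 8P vs. 8ND, 10 were also called in 0P vs. 0ND, all in the same direction. These were Col5a2, Col6a4, Col6a5, Col9a2, Col9a3, Col16a1, Col17a1 and Col18a1, which rose, and Col4a6 and Col14a1, which fell. The matching overlap over all genes was not counted, so this overlap is not shown to be particular to collagen genes. The larger count without FA is not shown to be a difference between diets. The interaction of diet and dysplasia passed for 0 of the 38 genes in edgeR, DESeq2 and limma-voom. The 8P vs. 8ND counts moved with single libraries. The number that rose was 5 without 8ND 4 (the shallowest library), 8P 2 or 8P 5, against 12 without 8P 3 or 8P 4, and the number that fell was 1 without 8ND 4, 8ND 5, 8P 1 or 8P 3.

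**Figure D2:**
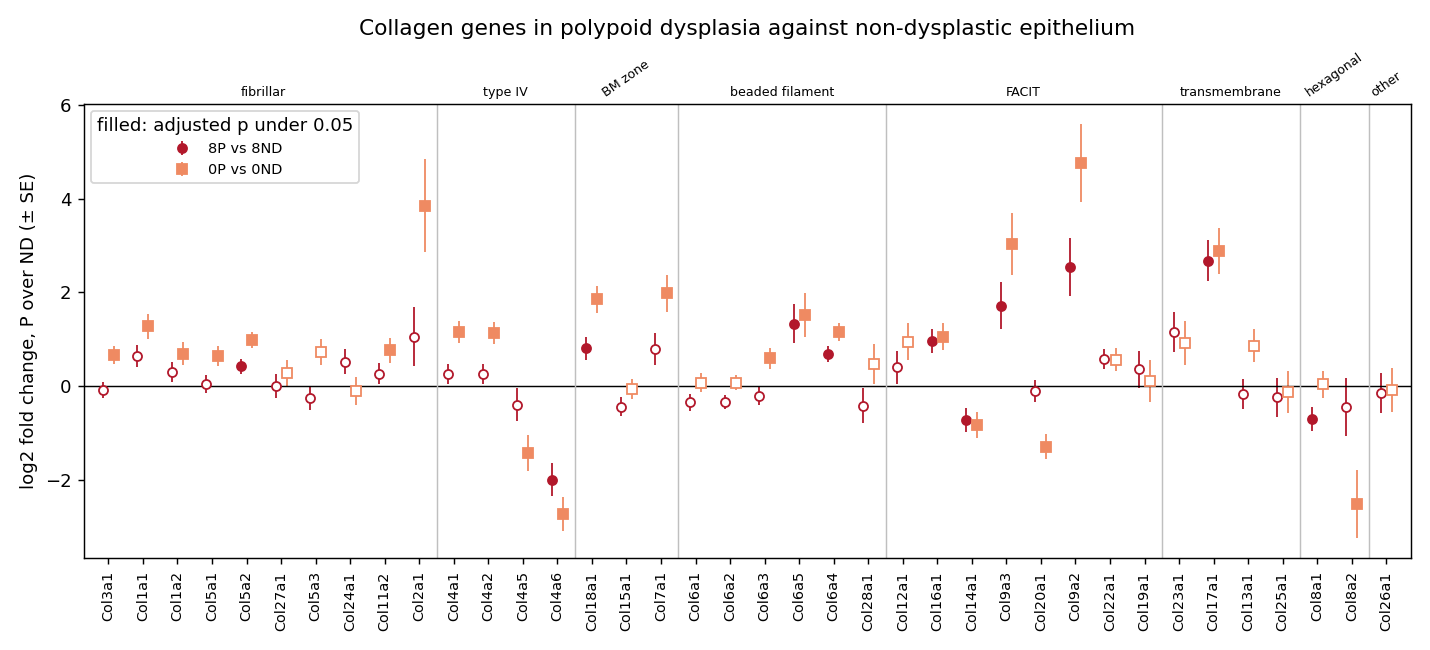
Log2 fold change (± SE) of the 38 tested collagen genes in 8P vs. 8ND (circles, n = 5 and 5) and 0P vs. 0ND (squares, n = 4 and 4), ordered by class. Filled symbols passed an adjusted p of 0.05. Filled symbols above 0 number 8 and 18, and those below 0 number 3 and 5. Col4a5 and Col4a6 lie on the other side of 0 from Col4a1 and Col4a2 in 0P vs. 0ND.

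Among fibrillar chains, 1 of 10 tested rose in 8P vs. 8ND and 7 rose in 0P vs. 0ND, with 0 lower in both. Over all tested genes, 13.9% rose and 14.3% fell in 8P vs. 8ND, and 15.9% rose and 15.7% fell in 0P vs. 0ND. The counts of each class were not tested against these shares. Col5a2, a chain of type V collagen, which sets the diameter of type I fibrils, rose under both diets. It had 101, 143, 85.6, 91.1 and 160.2 CPM in 8P and 91.5, 82.2, 90.8, 70.5 and 99.1 CPM in 8ND (a log2 fold change of 0.42 ± 0.15 SE, adjusted p = 0.047), and 121, 107, 143 and 142 CPM in 0P and 65.8, 68.6, 59.3 and 66.3 CPM in 0ND (a log2 fold change of 0.98 ± 0.17 SE, adjusted p = 0.00024). The 8P and 8ND values overlapped, while every 0P library was above every 0ND library. The call in 8P vs. 8ND was lost without 8ND 1, 8ND 2, 8ND 3, 8ND 4, 8P 2 or 8P 5 (adjusted p up to 0.17).

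Col1a1, the main chain of type I collagen, had 288, 291, 322 and 359 CPM in 0P and 96.4, 156, 122 and 148 CPM in 0ND, without overlap (a log2 fold change of 1.27 ± 0.27 SE, adjusted p = 0.0013). In 8P it had 248, 394, 155, 206 and 473 CPM and in 8ND 218, 171, 183, 155 and 221 CPM, which just missed the threshold (a log2 fold change of 0.64 ± 0.23 SE, adjusted p = 0.0503). Its partner chain Col1a2 also rose in 0P vs. 0ND, with 257 to 359 CPM in 0P and 155 to 204 CPM in 0ND (0.69 ± 0.24, adjusted p = 0.038), and did not pass in 8P vs. 8ND (0.30 ± 0.22, adjusted p = 0.33). Col3a1, the type III chain of loose connective tissue, had 502, 563, 613 and 686 CPM in 0P and 299, 433, 377 and 391 CPM in 0ND (a log2 fold change of 0.66 ± 0.19 SE, adjusted p = 0.014). In 8P it had 396, 524, 305, 395 and 685 CPM, on both sides of the 475, 409.9, 584, 427 and 541 CPM of 8ND (−0.08 ± 0.17, adjusted p = 0.77). The calls in 0P vs. 0ND were lost without 0ND 1 for Col3a1 (adjusted p = 0.051) and without any 1 of 6 libraries (all 4 of 0ND, 0P 1 or 0P 4) for Col1a2 (adjusted p up to 0.12).

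Another 3 fibrillar chains rose in 0P vs. 0ND. They were Col5a1 (0.64 ± 0.22, adjusted p = 0.030), Col11a2, a type XI chain known from cartilage fibrils (0.76 ± 0.26, adjusted p = 0.033), and Col2a1, the cartilage type II chain (3.85 ± 0.99, adjusted p = 0.0055). Col2a1 rested on few reads, 42 in the 4 libraries of 0P and 2 in those of 0ND, with 0.616, 1.39, 1.37 and 0.435 CPM in 0P and 0, 0.176, 0.118 and 0 CPM in 0ND. In 8P it had 0.894, 1.31, 0.812, 0.422 and 1.76 CPM against 0.138, 1.35, 0.215, 0 and 0.308 CPM in 8ND (1.06 ± 0.62, adjusted p = 0.22), where 8ND 2 lay among the 8P libraries. The log2 fold change of Col2a1 in 0P vs. 0ND was 3.24 without 0ND 1 and 4.47 without 0ND 2. Without 1 library, the call was lost for Col5a1 (0ND 1, 0ND 3, 0ND 4, 0P 2 or 0P 4, adjusted p up to 0.094) and for Col11a2 (0ND 1, 0ND 2, 0ND 3, 0P 1 or 0P 2, adjusted p up to 0.11). Col5a3, Col24a1 and Col27a1 passed in neither comparison.

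In type IV collagen the pairs moved apart. Col4a1 and Col4a2, whose chains form the network found in nearly all basement membranes, rose in 0P vs. 0ND. Col4a1 had 248, 347, 393 and 359 CPM in 0P and 111, 197, 131 and 169.6 CPM in 0ND (a log2 fold change of 1.15 ± 0.23 SE, adjusted p = 0.00098). Col4a2 had 164, 229, 265 and 241 CPM in 0P and 79.0, 134, 88.5 and 109 CPM in 0ND (a log2 fold change of 1.14 ± 0.24 SE, adjusted p = 0.0012). Neither pair of groups overlapped. With 8 mg FA the change was 0.26 ± 0.21, adjusted p = 0.38 for Col4a1 and 0.26 ± 0.21, adjusted p = 0.40 for Col4a2, and the values of 8P, 153 to 354 CPM for Col4a1, enclosed those of 8ND, 169 to 257 CPM.

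Col4a6, whose chain joins that of Col4a5 in a separate network of some epithelial and smooth muscle basement membranes, fell under both diets. It had 0.703, 1.09, 0.650, 0.704 and 1.30 CPM in 8P and 3.18, 2.69, 3.54, 4.54 and 3.90 CPM in 8ND (a log2 fold change of −1.998 ± 0.35 SE, adjusted p = 0.00030). Without FA it had 2.38, 1.54, 0.823 and 0.560 CPM in 0P and 6.37, 12.5, 7.10 and 9.85 CPM in 0ND (a log2 fold change of −2.74 ± 0.37 SE, adjusted p = 2.0e-05). No P library reached the lowest ND library of its diet, and the calls held in each fit without 1 library. Col4a5 had 6.78, 4.00, 3.70 and 7.28 CPM in 0P and 8.73, 21.2, 11.4 and 18.5 CPM in 0ND (a log2 fold change of −1.43 ± 0.39 SE, adjusted p = 0.0090). In 8P it had 5.17, 3.05, 3.41, 12.4 and 8.54 CPM and in 8ND 8.71, 8.40, 7.84, 5.87 and 11.8 CPM, which overlapped (−0.40 ± 0.35, adjusted p = 0.44). Together Col4a5 and Col4a6 made up 1.67, 0.701, 1.65, 3.42 and 1.96% of the summed per-length level of the 4 tested type IV chains in 8P, 2.20, 0.964, 0.701 and 1.35% in 0P, 3.23, 3.78, 2.68, 3.58 and 3.72% in 8ND and 7.25, 9.20, 7.70 and 9.25% in 0ND. Beside this, all 8 smooth muscle markers fell in both comparisons, where 14.3% of all tested genes fell in 8P vs. 8ND and 15.7% in 0P vs. 0ND. The summed level of these markers was 294 to 632 CPM in 8P, 414 to 826 CPM in 0P, 1032 to 2035 CPM in 8ND and 1184 to 3141 CPM in 0ND. The part of these markers in the Col4a5 and Col4a6 values was not tested.

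In the basement membrane zone Col18a1, whose chain carries heparan sulfate and the endostatin fragment, rose under both diets. It had 151, 307, 99.6, 135 and 266 CPM in 8P and 126, 108, 129, 79.5 and 106 CPM in 8ND (a log2 fold change of 0.80 ± 0.25 SE, adjusted p = 0.021), and 161, 186, 234 and 226 CPM in 0P and 49.3, 67.9, 59.9 and 46.9 CPM in 0ND (a log2 fold change of 1.85 ± 0.28 SE, adjusted p = 9.4e-05). Every 0P library was above every 0ND library, while 8P 3 lay inside the 8ND range, and the 8P vs. 8ND call was lost without 8ND 4, 8P 2 or 8P 5 (adjusted p up to 0.062). Col7a1, which makes the anchoring fibrils under squamous epithelia, had 7.75, 9.16, 10.8 and 7.71 CPM in 0P and 2.49, 2.12, 1.89 and 2.38 CPM in 0ND (a log2 fold change of 1.98 ± 0.39 SE, adjusted p = 0.00065). In 8P it had 5.88, 9.15, 2.03, 2.74 and 6.87 CPM and in 8ND 2.77, 1.90, 3.76, 5.07 and 2.36 CPM, with overlap (0.79 ± 0.35, adjusted p = 0.095). Col15a1, a relative of Col18a1 found around vessels and muscle, passed in neither comparison, at 18.4 to 40.1 CPM in 8P, 30.1 to 43.4 CPM in 0P, 34.2 to 50.9 CPM in 8ND and 33.2 to 52.6 CPM in 0ND.

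The beaded filament chains split within the class. Col6a4 and Col6a5, each of which can take the place of the Col6a3 chain, rose under both diets, and Col6a1 and Col6a2, the chains common to all type VI filaments, passed in neither. Col6a4 had 40.0, 58.2, 32.2, 43.9 and 41.8 CPM in 8P and 22.7, 24.02, 31.2, 20.3 and 36.1 CPM in 8ND (a log2 fold change of 0.68 ± 0.17 SE, adjusted p = 0.0064). Without FA it had 43.6, 49.9, 62.4 and 58.8 CPM in 0P and 22.9, 29.98, 19.8 and 23.9 CPM in 0ND (a log2 fold change of 1.16 ± 0.20 SE, adjusted p = 0.00017). Only 8P 3 fell inside the 8ND range, and no 0P library fell inside that of 0ND. Col6a5 had 106, 65.6, 67.1, 32.2 and 191 CPM in 8P and 46.3, 28.8, 22.9, 22.7 and 61.9 CPM in 8ND (a log2 fold change of 1.33 ± 0.42 SE, adjusted p = 0.025), against 103, 58.6, 71.9 and 51.8 CPM in 0P and 24.4, 20.5, 38.01 and 16.8 CPM in 0ND (a log2 fold change of 1.51 ± 0.47 SE, adjusted p = 0.022). It spread widely within each group, and its calls were lost without 8ND 2, 8ND 3, 8ND 4, 8P 1 or 8P 5 (adjusted p up to 0.085) and without 0ND 1, 0ND 2, 0ND 4 or 0P 1 (adjusted p up to 0.068). Without both 8ND 1 and 8ND 2, Col6a4 also missed the threshold in 8P vs. 8ND (0.55, adjusted p = 0.059). Col6a1 changed by −0.35 ± 0.18, adjusted p = 0.17 in 8P vs. 8ND and 0.07 ± 0.20, adjusted p = 0.83 in 0P vs. 0ND, and Col6a2 by −0.34 ± 0.15, adjusted p = 0.097 and 0.07 ± 0.17, adjusted p = 0.79. Col6a3 rose in 0P vs. 0ND, with 140.2 to 186 CPM in 0P and 83.2 to 129 CPM in 0ND (0.59 ± 0.22, adjusted p = 0.047), a call lost without 0ND 1, 0ND 3, 0P 2 or 0P 4 (adjusted p up to 0.14). Col28a1 passed in neither comparison.

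**Figure D3:**
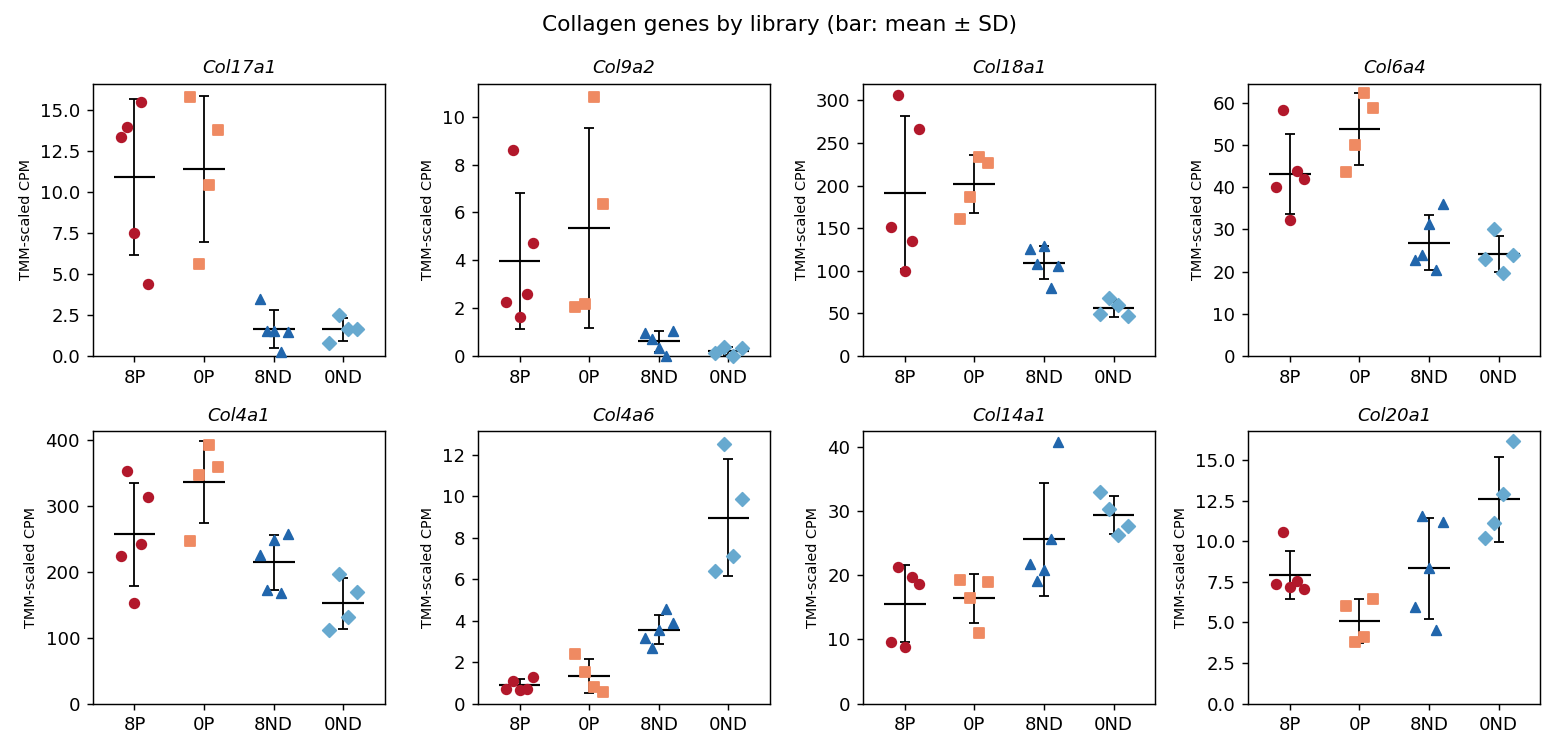
TMM-scaled CPM of 8 collagen genes, 1 point per library (8P n = 5, 0P n = 4, 8ND n = 5, 0ND n = 4) with the mean ± SD. Col17a1, Col9a2, Col18a1 and Col6a4 are higher in P, Col4a6 and Col14a1 lower, and Col4a1 and Col20a1 differ between 0P and 0ND alone among the tests passed.

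Among FACIT chains, 3 of 8 tested rose in 8P vs. 8ND and 1 fell, where 13.9% of all tested genes rose and 14.3% fell. In 0P vs. 0ND, 3 rose and 2 fell, where 15.9% of all tested genes rose and 15.7% fell. Col9a2 and Col9a3 encode chains of type IX collagen, known for coating the type II fibrils of cartilage. Col9a2 had 2.24, 8.60, 1.62, 2.60 and 4.73 CPM in 8P and 0.968, 0.713, 0.322, 0 and 1.03 CPM in 8ND (a log2 fold change of 2.54 ± 0.63 SE, adjusted p = 0.0051), and 2.02, 2.15, 10.8 and 6.35 CPM in 0P and 0.127, 0.353, 0 and 0.325 CPM in 0ND (a log2 fold change of 4.76 ± 0.83 SE, adjusted p = 0.00024). Every P library was above every ND library, although the reads were few, 222 in 8P, 232 in 0P, 29 in 8ND and 7 in 0ND. Col9a3 had 8.49, 36.8, 9.02, 13.8 and 23.4 CPM in 8P and 4.98, 14.3, 1.18, 3.20 and 2.88 CPM in 8ND (a log2 fold change of 1.72 ± 0.51 SE, adjusted p = 0.018). Without FA it had 11.4, 8.70, 8.92 and 12.9 CPM in 0P and 1.47, 0.882, 1.30 and 1.30 CPM in 0ND (a log2 fold change of 3.03 ± 0.65 SE, adjusted p = 0.0018). The library 8ND 2 was inside the 8P range, and without 8P 2 the call in 8P vs. 8ND was just lost (adjusted p = 0.0502), while without 8ND 2 the log2 fold change of Col9a3 there was 2.59. Of its exon length, 6.07% overlaps Tcfl5 on the other strand, and reads there cannot be assigned without the strand setting. The third chain, Col9a1, was not tested and had 58 reads in 8P, 36 in 0P, 13 in 8ND and 2 in 0ND.

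Col16a1, a chain found next to basement membranes and in fibrillin microfibrils, rose under both diets. It had 32.4, 90.9, 34.8, 56.7 and 51.3 CPM in 8P and 30.7, 32.9, 25.1, 19.2 and 28.5 CPM in 8ND (a log2 fold change of 0.95 ± 0.26 SE, adjusted p = 0.0096), and 66.7, 42.9, 41.0 and 43.9 CPM in 0P and 19.6, 35.4, 19.5 and 19.9 CPM in 0ND (a log2 fold change of 1.05 ± 0.29 SE, adjusted p = 0.0091). In 8P only 8P 1 reached down into the 8ND range. Col14a1, which binds the surface of type I fibrils, fell instead. It had 9.58, 21.2, 8.77, 19.7 and 18.7 CPM in 8P and 21.7, 19.0, 20.8, 25.6 and 40.8 CPM in 8ND (a log2 fold change of −0.72 ± 0.25 SE, adjusted p = 0.040), and 19.3, 16.4, 11.0 and 19.0 CPM in 0P and 32.9, 30.3, 26.3 and 27.6 CPM in 0ND (a log2 fold change of −0.83 ± 0.28 SE, adjusted p = 0.030). Its call was lost without 8ND 4, 8ND 5, 8P 1 or 8P 3 (adjusted p up to 0.16) and without 0ND 1, 0ND 2, 0P 2 or 0P 3 (adjusted p up to 0.11).

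Col20a1 fell in 0P vs. 0ND, with 5.99, 3.77, 4.12 and 6.47 CPM in 0P and 10.2, 11.1, 12.9 and 16.1 CPM in 0ND (a log2 fold change of −1.30 ± 0.27 SE, adjusted p = 0.00099). In 8P it had 7.34, 10.6, 7.15, 7.53 and 7.05 CPM and in 8ND 5.95, 11.6, 8.37, 4.54 and 11.2 CPM (−0.10 ± 0.24, adjusted p = 0.78), where the 8ND libraries lay on both sides of most 8P libraries. Col12a1, the most abundant FACIT chain and a fibril-surface protein like Col14a1, had 137, 279, 113, 118 and 486 CPM in 8P and 137, 234, 108, 185 and 193 CPM in 8ND (0.40 ± 0.35, adjusted p = 0.44), and 184 to 284 CPM in 0P and 89.3 to 148 CPM in 0ND (0.95 ± 0.40, adjusted p = 0.083). It did not pass in either. Col22a1 (0.57 ± 0.22, adjusted p = 0.056 in 8P vs. 8ND) and Col19a1 also did not pass.

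Of the 4 transmembrane chains, Col17a1 rose under both diets, and it had the smallest p of the collagen genes in 8P vs. 8ND. It had 13.3, 13.9, 7.47, 15.5 and 4.36 CPM in 8P and 3.46, 1.51, 1.503, 0.267 and 1.44 CPM in 8ND (a log2 fold change of 2.68 ± 0.44 SE, adjusted p = 0.00019), and 15.8, 5.62, 10.4 and 13.7 CPM in 0P and 0.765, 2.47, 1.66 and 1.62 CPM in 0ND (a log2 fold change of 2.88 ± 0.49 SE, adjusted p = 0.00021). Every P library was above every ND library, and the calls held in each fit without 1 library. The summed epithelial markers were at 2562 to 3737 CPM in 8P, 3019 to 4493 CPM in 0P, 2831 to 4825 CPM in 8ND and 3265 to 4755 CPM in 0ND. Of these 8 markers, 1 rose and 5 fell in 8P vs. 8ND, where 13.9% of all tested genes rose and 14.3% fell. In 0P vs. 0ND, 1 marker rose and 2 fell, where 15.9% of all tested genes rose and 15.7% fell. Col23a1 had 19.9, 31.8, 6.34, 10.1 and 21.7 CPM in 8P and 6.22, 10.1, 6.12, 9.88 and 8.12 CPM in 8ND (1.15 ± 0.42, adjusted p = 0.0504), and 7.93 to 32.3 CPM in 0P and 5.63 to 15.3 CPM in 0ND (0.92 ± 0.47, adjusted p = 0.15). It and Col13a1 (−0.17 ± 0.31, adjusted p = 0.73 in 8P vs. 8ND and 0.86 ± 0.35, adjusted p = 0.069 in 0P vs. 0ND) did not pass, nor did Col25a1.

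Of the hexagonal network chains, Col8a1, a type VIII chain known from vessel walls and the cornea, fell in 8P vs. 8ND. It had 9.00, 5.55, 5.12, 8.79 and 16.1 CPM in 8P and 13.4, 15.7, 12.3, 15.7 and 15.6 CPM in 8ND (a log2 fold change of −0.70 ± 0.25 SE, adjusted p = 0.043). It was the 1 gene called in 8P vs. 8ND but not in 0P vs. 0ND (0.03 ± 0.28, adjusted p = 0.95), and the call held only without 8ND 3 or 8P 5 among the fits that left out 1 library (adjusted p up to 0.10). Col8a2 fell in 0P vs. 0ND, with 1.23, 0.231, 0.137 and 0.187 CPM in 0P and 2.10, 2.47, 2.60 and 3.36 CPM in 0ND (a log2 fold change of −2.52 ± 0.72 SE, adjusted p = 0.011). The log2 fold change was −3.70 without 0P 1, the 0P library with the highest value. In 8P and 8ND the Col8a2 values overlapped (−0.45 ± 0.62, adjusted p = 0.63). Col26a1 passed in neither comparison.

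The next question was whether the FA diet changed collagen genes within each tissue. In 8ND vs. 0ND, edgeR called 0 of the 38 genes, where 0.0481% of all genes were called (0.0289% higher and 0.0192% lower). The background of 10 called genes turned on single libraries and on the tool, with 157 genes called without 8ND 3, 2 to 18 without any other single library, and 310 in DESeq2. Of the collagen genes, DESeq2 called 3 and limma-voom called 0. The median log2 fold change was 0.35 for the collagen genes and 0.0033 for all genes. The 3 smallest p-values were those of the 3 genes DESeq2 called. Col4a6 was lower in every 8ND library than in any 0ND library (−1.33 ± 0.33, adjusted p = 0.11 in edgeR, 0.0083 in DESeq2), with the values given above. Col18a1 was higher in every 8ND library (0.97 ± 0.27, adjusted p = 0.16 in edgeR, 0.027 in DESeq2, and 0.043 in edgeR with 8ND and 0ND alone). So was Col1a2, with 212 to 287 CPM in 8ND and 155 to 204 CPM in 0ND (0.38 ± 0.23, adjusted p = 0.66 in edgeR). Col5a2 likewise had 70.5 to 99.1 CPM in 8ND and 59.3 to 68.6 CPM in 0ND (0.42 ± 0.16, adjusted p = 0.38 in edgeR). The share of all genes without overlap was not counted. Col9a3 changed by 2.11 ± 0.64, adjusted p = 0.23 in edgeR and 0.020 in DESeq2, and its 8ND values ranged from 1.18 CPM in 8ND 3, inside the 0ND range, to 14.3 CPM in 8ND 2, without which its log2 fold change was 1.23.

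In 8P vs. 0P, 0 collagen genes were called by edgeR, DESeq2 or limma-voom, as were 0% of all genes in edgeR. The median log2 fold change was −0.090, against 0.0053 for all genes. The 3 smallest p-values belonged to the main type VI chains. Col6a1 had 73.8, 111, 57.8, 64.0 and 108 CPM in 8P and 125, 109, 111 and 137 CPM in 0P (a log2 fold change of −0.54 ± 0.19 SE, adjusted p = 0.46), and Col6a2 had 80.1, 103, 58.5, 70.4 and 109 CPM in 8P and 109, 107, 108 and 129.8 CPM in 0P (−0.43 ± 0.16, adjusted p = 0.46). Col6a3 had 105, 112, 65.7, 93.5 and 169 CPM in 8P and 140.2, 168, 147 and 186 CPM in 0P (−0.56 ± 0.21, adjusted p = 0.46). The groups overlapped for all 3 genes. For Col20a1 they did not, with 7.05 to 10.6 CPM in 8P and 3.77 to 6.47 CPM in 0P (0.63 ± 0.25, adjusted p = 0.47). How many of all genes lacked overlap was not counted.

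The interaction asked whether the change with dysplasia differed between the diets, as the change in 8P vs. 8ND minus that in 0P vs. 0ND. Its median was −0.45 for the collagen genes and −0.013 for all genes. Over all genes, 0 passed in edgeR with all libraries, 26 without 8ND 3, 2 without 0P 1 and 82 in DESeq2. The smallest p-values were those of Col20a1 (1.19 ± 0.36, adjusted p = 0.32), Col4a1 (−0.89 ± 0.31, adjusted p = 0.35) and Col3a1 (−0.74 ± 0.26, adjusted p = 0.36). A p above the threshold does not show that the genes responded alike under both diets.

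Ratios between chains were then compared by library, as descriptions, since they were chosen after their values were seen. Col1a1 over Col3a1, each per kb, was 0.935, 1.12, 0.758, 0.779 and 1.03 in 8P, 0.857, 0.774, 0.786 and 0.782 in 0P, 0.686, 0.626, 0.469, 0.543 and 0.610 in 8ND and 0.481, 0.538, 0.484 and 0.567 in 0ND. The P and ND libraries did not overlap in this ratio, and it was higher in every P library.

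**Figure D4:**
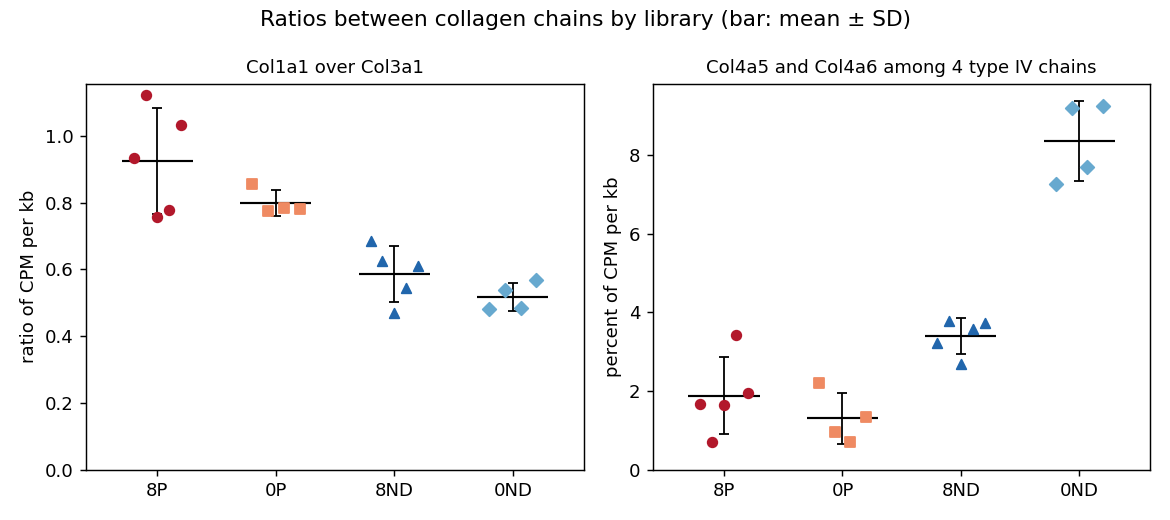
Left, Col1a1 over Col3a1, each in CPM per kb; right, Col4a5 and Col4a6 as percent of the summed CPM per kb of Col4a1, Col4a2, Col4a5 and Col4a6. Points are libraries, with the mean ± SD of 8P (n = 5), 0P (n = 4), 8ND (n = 5) and 0ND (n = 4). All P libraries lie above all ND libraries on the left, and the 4 libraries of 0ND stand above all others on the right.

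The summed level of all 44 genes, as CPM of total counts, was 2538, 3739, 1775, 1963 and 4409 in 8P, 2691, 3321, 3460.1 and 3332 in 0P, 2152, 2461, 2262, 2212 and 2563 in 8ND and 1713, 1915, 1692 and 1805 in 0ND. Every 0P library was above every 0ND library, whereas 8P 3 and 8P 4 lay below all 8ND libraries and 8P 2 and 8P 5 above all of them. On the TMM scale, 8P 4 at 2149 CPM was no longer below 8ND 4 at 2067 CPM, and the other orders were kept. Fibroblast markers other than collagens, again as CPM of total counts, summed to 746, 984, 545, 766 and 1030.4 CPM in 8P, 898, 849.8, 958 and 1139 CPM in 0P, 895, 1016, 968, 946 and 1127 CPM in 8ND and 1117, 1114, 1023 and 1011 CPM in 0ND. In 8P the libraries 8P 3, 8P 2 and 8P 5 held the lowest and the 2 highest values of both sums. Of the 15 fibroblast markers, 1 rose and 8 fell in 8P vs. 8ND, and 2 rose and 7 fell in 0P vs. 0ND. Over all tested genes, 13.9% rose and 14.3% fell in 8P vs. 8ND, and 15.9% rose and 15.7% fell in 0P vs. 0ND. The platelet-derived growth factor receptor Pdgfra rose in both (0.43 ± 0.14, adjusted p = 0.022 and 0.80 ± 0.15, adjusted p = 0.00049), while the matrix genes Postn (−1.55 ± 0.25, adjusted p = 0.00023 and −1.80 ± 0.29, adjusted p = 0.00013) and Dpt (−1.72 ± 0.29, adjusted p = 0.00028 and −1.24 ± 0.32, adjusted p = 0.0057) fell. Of 8 endothelial markers, 3 fell in 8P vs. 8ND, and 1 rose and 2 fell in 0P vs. 0ND. Of 6 pericyte markers, 4 fell in 8P vs. 8ND, and 1 rose and 3 fell in 0P vs. 0ND. Of 8 macrophage markers, 2 rose in 0P vs. 0ND, and of 3 tested glial markers 1 rose and 1 fell in each comparison. The smooth muscle sum, lower in every P library than in any ND library, reached the smallest p that an exact two-sided permutation test allows, 0.0079 with 5 against 5 libraries and 0.029 with 4 against 4. The pericyte sum, lower in 0P than in 0ND, also reached that limit in 0P vs. 0ND, and on the TMM scale so did the enteric glia sum. Over the 32 tests of marker sums and total counts a single sum at that limit could not pass after adjustment (smallest adjusted p = 0.25), so these tests say nothing about which sums differed. The part of these markers in the collagen results was not tested.

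**Figure D5:**
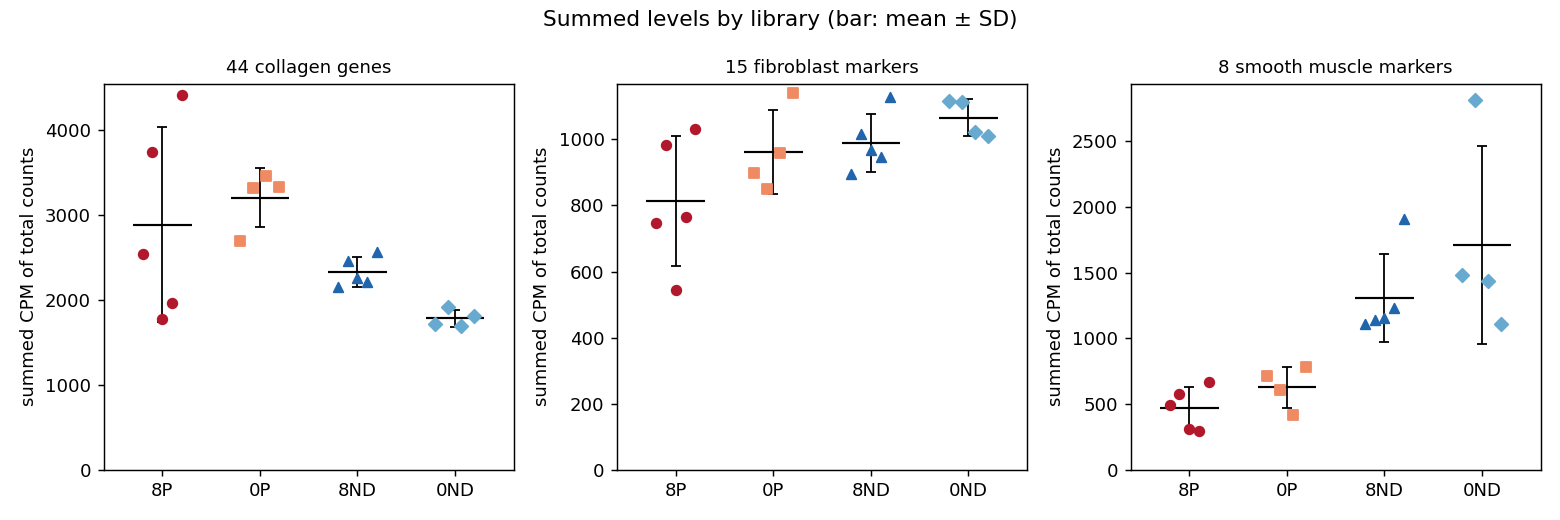
Summed CPM of total counts for the 44 collagen genes (left), 15 fibroblast markers without collagens (middle) and 8 smooth muscle markers (right), 1 point per library with the mean ± SD of 8P (n = 5), 0P (n = 4), 8ND (n = 5) and 0ND (n = 4). The collagen sum is higher in every 0P than in every 0ND library, the fibroblast sums overlap between P and ND, and the smooth muscle sum is lower in every P than in every ND library.

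Genes that process collagen were followed last, in 5 lists. Over all tested genes, 28.2% were called either way in 8P vs. 8ND and 31.6% in 0P vs. 0ND. The counts of these short lists were not tested against those shares. Of 19 genes for hydroxylation, glycosylation and folding, 1 rose and 3 fell in 8P vs. 8ND, and 6 rose and 4 fell in 0P vs. 0ND. Colgalt1, which adds galactose to hydroxylysine, had 41.7 to 62.3 CPM in 8P and 31.5 to 38.5 CPM in 8ND (0.50 ± 0.11, adjusted p = 0.0027), and 53.4 to 64.6 CPM in 0P and 28.7 to 38.5 CPM in 0ND (0.78 ± 0.13, adjusted p = 0.00013). It was higher in every P library than in any ND library. P3h2, a prolyl 3-hydroxylase that acts on type IV chains, fell to 5.01 to 8.82 CPM in 8P, against 11.2 to 15.7 CPM in 8ND (−0.91 ± 0.18, adjusted p = 0.00086), and to 5.54 to 7.55 CPM in 0P, against 14.5 to 22.4 CPM in 0ND (−1.39 ± 0.20, adjusted p = 3.9e-05). Mia3, which loads procollagen into transport carriers, also fell in both (−0.57 ± 0.14, adjusted p = 0.0046 and −0.44 ± 0.16, adjusted p = 0.038), and P4ha1, a prolyl 4-hydroxylase subunit, fell in 0P vs. 0ND (−0.67 ± 0.17, adjusted p = 0.0050).

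Of 7 tested genes for propeptide removal, 1 fell in 8P vs. 8ND and 1 rose in 0P vs. 0ND. The gene that fell was Tll1 (−1.24 ± 0.32, adjusted p = 0.0073) and the gene that rose Bmp1 (0.88 ± 0.25, adjusted p = 0.0099), both proteases that cut procollagen ends. Of 5 lysyl oxidases, which cross-link the finished fibrils, 1 rose in 8P vs. 8ND and 3 rose in 0P vs. 0ND. Lox had 17.8 to 36.1 CPM in 8P and 12.02 to 21.5 CPM in 8ND (0.83 ± 0.22, adjusted p = 0.0081), and 11.0 to 22.5 CPM in 0P and 5.21 to 7.77 CPM in 0ND (1.47 ± 0.26, adjusted p = 0.00024). Loxl2 (1.30 ± 0.21, adjusted p = 9.7e-05) and Loxl4 (1.012 ± 0.30, adjusted p = 0.015) rose in 0P vs. 0ND. In 8ND vs. 0ND, Lox was also the lysyl oxidase nearest to the threshold (1.25 ± 0.25, adjusted p = 0.069).

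Of 9 fibril-binding genes, 2 rose and 2 fell in 8P vs. 8ND, and 3 rose and 3 fell in 0P vs. 0ND. Tnxb, a tenascin that ties collagen fibrils together, fell to 5.93 to 16.1 CPM in 8P, against 56.0 to 104 CPM in 8ND (−2.81 ± 0.24, adjusted p = 1.1e-06), and to 27.1 to 37.9 CPM in 0P, against 85.1 to 137 CPM in 0ND (−1.67 ± 0.25, adjusted p = 5.9e-05). Between the diets in dysplasia, Tnxb just missed the threshold in 8P vs. 0P (−1.52 ± 0.24, adjusted p = 0.053). Thbs2, a matrix regulator of fibril assembly (1.91 ± 0.44, adjusted p = 0.0039 and 2.50 ± 0.51, adjusted p = 0.0014), and fibronectin, Fn1 (0.86 ± 0.23, adjusted p = 0.0091 and 1.204 ± 0.26, adjusted p = 0.0016), rose in both. Of 9 collagen receptor and uptake genes, 1 rose and 1 fell in 8P vs. 8ND, and 2 rose and 1 fell in 0P vs. 0ND. The collagen-binding receptor kinases moved in opposite directions. Ddr1, the one of epithelial cells, had 65.9 to 91.9 CPM in 8P and 32.03 to 52.1 CPM in 8ND (0.69 ± 0.13, adjusted p = 0.00056), and 67.3 to 82.2 CPM in 0P and 35.9 to 46.9 CPM in 0ND (0.90 ± 0.15, adjusted p = 0.00011). Ddr2, the one of mesenchymal cells, fell in both (−0.76 ± 0.21, adjusted p = 0.0096 and −0.89 ± 0.23, adjusted p = 0.0061).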

How the data were processed

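Each of the 18 libraries came as a deposited table of raw counts, 1 row per gene name. As the labels and the methods give it, the authors prepared 40 ng of RNA with a stranded low-input kit, aligned reads with Bowtie to mm10 and obtained counts with HTSeq. Versions and strand setting: not given in the sources used here. The 5 summary lines of each table, which hold 22.0 to 40.7% (no gene), 40.1 to 62.2% (no unique alignment) and 0.220 to 0.384% (ambiguous) of reads per library, stayed out of library sizes and tests. Total counts ranged from 3500947 to 17048524 (median 10292934).

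The test was the quasi-likelihood test of edgeR 4.0.16 (R 4.3.3, robust), with TMM scaling and genes kept by filterByExpr by group (minimum count 10). A single model with a mean for each group took in all 18 libraries. Benjamini-Hochberg adjustment of p-values covered 20787 genes. The SE was obtained as the absolute log2 fold change over the root of its F statistic. The square root of the common dispersion was 0.261. Exon lengths and positions came from GENCODE M21. All 32 pairs of replicates differed by more than sampling noise. DESeq2 1.42, limma-voom (limma 3.58.1), other scalings, no filter and other sample sets served as alternatives, and the scripts were tested on simulated data.

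The collagen genes, the classes, the processing lists and the marker lists were chosen with earlier results of these data known. Values were given for the 6 smallest p among called collagen genes in each comparison (3 where none passed), the 3 of the interaction, the 3 highest per-length levels in each class, called genes that went against most of their class, and up to 3 genes per processing list. Other collagen genes, Pdgfra, Postn and Dpt were named after their values were seen. Same-numbered libraries did not all deviate together (correlations −0.091 to 0.29 in 8P vs. 8ND and 0.021 to 0.20 in 0P vs. 0ND), so their numbers were not used as pairs in the main test. The same-numbered library was the best match in 2 of 5 pairs in 8P vs. 8ND and 3 of 4 in 0P vs. 0ND. Between diets it was so in 0 of 4 pairs in 8ND vs. 0ND and 1 of 4 in 8P vs. 0P. Whether same-numbered P and ND libraries share a mouse was therefore not settled.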

Additional observations from a re-analysis of the deposited data

Results flagged for a closer look

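In 184 groups of libraries examined, over the named collagen genes and the library sums, 11 held a library set apart from the others of its group by Dixon's 95% limit, and chance flags about 1 in 20. Library 0P 1 was high for Col16a1 (66.7 CPM, others up to 43.9), Col8a2 (1.23 CPM, others up to 0.231) and the Col1a1 over Col3a1 ratio (0.857, others up to 0.786). Among 0ND, 0ND 2 was high for Col16a1 (35.4 CPM, others up to 19.9), 0ND 4 low for Col8a1 (8.01 CPM, others from 12.4) and 0ND 1 high for the endothelial marker sum (213.9 CPM of total counts, others up to 155, against 198.9 and up to 174 on the TMM scale, where it did not pass that limit). Among 8ND, 8ND 2 was high for Col9a3 (14.3 CPM, others up to 4.98), 8ND 4 for the level of Col26a1 (4.86 CPM of total counts, others up to 1.93) and 8ND 5 for the smooth muscle marker sum (1905 CPM of total counts, others up to 1233). Col20a1 was high in 8P 2 (10.6 CPM, others up to 7.53) and Col6a2 in 0P 4 (129.8 CPM, others up to 109).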

How the results depend on the processing

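No alternative turned the direction of a called collagen gene, and no scaling moved the median of all genes by over 0.1 on the log2 scale. In 8P vs. 8ND, the number that rose was 5 and the number that fell 1 without a filter on low counts, and likewise 5 and 1 with only the groups compared in the fit, while limma-voom gave 5 that rose. In 8ND vs. 0ND, DESeq2 called 2 higher and 1 lower, and the fit of only the groups compared called 1 higher. Leaving out each library in turn gave 5 to 12 that rose and 1 to 4 that fell in 8P vs. 8ND, 13 to 18 and 4 to 5 in 0P vs. 0ND, and 0 in the other comparisons. The cause of these moves was not tested. With the replicate number as a block, 8 rose and 4 fell in 8P vs. 8ND and 19 rose and 5 fell in 0P vs. 0ND, with 0 called in the diet comparisons and the interaction, while Col5a2 (adjusted p = 0.058 in 8P vs. 8ND) and Col11a2 (adjusted p = 0.052 in 0P vs. 0ND) missed the threshold. Without 8ND 1 and 8ND 2, Col18a1, Col5a2, Col6a4, Col6a5 and Col8a1 missed it in 8P vs. 8ND (adjusted p from 0.050 to 0.12), and 6 rose and 2 fell. No filter cost 5 named genes their call in 0P vs. 0ND, among them Col1a2 (adjusted p = 0.11). The 6 untested genes, Col2a1, Col9a2 and Col8a2 rested on few reads.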
